A study of Mus musculus with 9 samples.

Results

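The genes examined here were 44 enzymes and transporters of central carbon metabolism, taken by name from the 29995 genes of a table without immunoglobulin (Ig) genes. There were 20 members of glycolysis (from glucose uptake to lactate export), 4 at the entry of pyruvate into the mitochondrion, 7 of the pentose phosphate pathway and 13 of the tricarboxylic acid (TCA) cycle. The members were taken by pathway and not by their values, although earlier results of these data were known. RNA had been sequenced from splenic B cells of 12-week-old B6.Blimp1+/GFP mice, in which 1 allele of Prdm1, the gene for Blimp1, carries a green fluorescent protein (GFP) reporter, so every group was heterozygous at that locus. All mice received 50 µg of NP-LPS, the hapten nitrophenyl on bacterial lipopolysaccharide, by intraperitoneal injection and were killed 4 days later. The 3 groups held 3 libraries each, from 3 mice, and the labels do not say which libraries share a mouse. Cells carrying T cell, macrophage or erythroid surface markers had been gated out. Naive B cells were sorted as B220+, IgD high cells that did not bind NP, and therefore came from immunized animals too. NP-binding B cells bound NP and had lost IgD, without GFP or CD138, whereas NP-specific plasma cells (PCs) bound NP and carried both GFP and CD138. The question was how far the transcripts of these 3 pathways differ between resting B cells, B cells activated by antigen and the antibody-secreting cells that they give rise to.

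Glycolysis converts glucose to pyruvate in the cytosol and yields ATP without oxygen, and lactate dehydrogenase regenerates its NAD+ by turning pyruvate into lactate. The pentose phosphate pathway branches off at glucose phosphate, where its oxidative arm makes NADPH and its other arm makes ribose phosphate for nucleotides. Pyruvate that enters mitochondria is converted by pyruvate dehydrogenase to acetyl-CoA, which the TCA cycle oxidizes to feed the respiratory chain. Activated lymphocytes are known for raised glycolysis with lactate secretion, and PCs are known to spend glucose largely on glycosylating antibody.

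Values are TPM, a length-corrected transcript abundance on a common total, which can be compared between genes. Depth recovered from the deposited log2 values was 28490300 to 31719400 estimated reads in naive libraries, 34918400 to 38602300 in NP-binding B cells and 20189900 to 22137400 in PCs. A gene was tested if its TPM reached 1 in at least 3 libraries, which left 12892 genes and 43 of the 44 members. Slc16a3, a lactate exporter, was not tested and lay between 0.365 and 1.88 TPM. A member was called when its adjusted p (limma-voom, Benjamini-Hochberg over the 12892 genes) was below 0.05 and its fold above 2. The libraries are bulk RNA, in which a lower share of cells that hold a transcript and less of it per cell cannot be told apart. Summed TPM of 7 B cell markers was 6667 to 7078 in naive cells, 4503 to 4969 in NP-binding B cells and 637 to 677 in PCs, and that of the 5 PC markers measured of 7 listed was 142 to 167, 175.0 to 194 and 4811 to 5939. PC replicate 3 stood apart because it also held liver transcripts. Its 9 liver markers summed to 5053 TPM, against 23.2 and 26.6 in the other PC libraries and 2.1 to 5.77 in the B cell libraries, so PC results were also computed without it. Of 12 erythroid markers listed and 10 measured, the sum was 15.8 to 19.6 TPM in naive cells, 66.7 to 103 in NP-binding B cells and 6.30 to 37.4 in PCs, and most of it in NP-binding B cells was the single globin gene Hbb-bh1. Over all libraries, 8 T cell markers summed to 5.06 to 65.0 TPM and 5 platelet markers to 0.0837 to 9.10 TPM. The 10 myeloid markers summed to 8.42 to 21.2 TPM in 7 libraries, but to 74.35 TPM in NP-binding B cell replicate 2, where S100a8 was 24.7 and S100a9 23.9 TPM, and to 95.7 TPM in PC replicate 3. The part of these transcripts in the results was not tested.

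In NP-binding B cells, 4 of the 43 members tested rose against naive B cells and 0 fell. Lower at any fold, 3 members (Slc2a1, Pdk1 and Rpia) had a limma-voom adjusted p below 0.05, and the same number had an unadjusted p below 0.05. The 4 that rose were Tpi1, Pgam1 and Ldha of glycolysis and Idh3a of the TCA cycle. Over all genes tested the same rule called 8.13% higher and 10.4% lower, so the share of members called was near the background for higher calls and below it for lower ones. Smaller differences were mostly in 1 direction. The log2 difference was above 0 for 35 of 43 members, against 41.6% of all genes, with a median of 0.35 against -0.16 over all genes. In 26 members every NP-binding B cell library lay above every naive one and in 3 every one lay below, where the background was 23.6% and 32.4% of genes. An adjusted p below 0.05 at any fold was reached by 23 members, against a background of 42.1%. Rescaling each library by the median of ratios moved the median of all genes by 0.11 and called the same 4 members and Gapdh, whereas quantile normalization kept only Tpi1 and put Ldha at 0.986, Idh3a at 0.998 and Pgam1 at 0.924 on the log2 scale, just under the fold required. Over all genes, median of ratios called 9.76% higher and 7.93% lower. Quantile normalization called 8.97% and 7.57%, so there the share of members called higher was below the background. Keeping the Ig genes called the same 4 higher and Pdk1 lower, beside 8.67% and 11.6% of all genes. Leaving out NP-binding B cell replicate 3 left Ldha and Tpi1 called, with Pgam1 at 0.992 and Idh3a at 0.998. Pdk1 and Rpia were both called lower without naive replicate 1, naive replicate 2 or NP-binding B cell replicate 2, and Rpia alone without NP-binding B cell replicate 1. Without NP-binding B cell replicate 2, the one with myeloid transcripts, the 4 members were called again together with Sucla2.

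**Figure D1:**
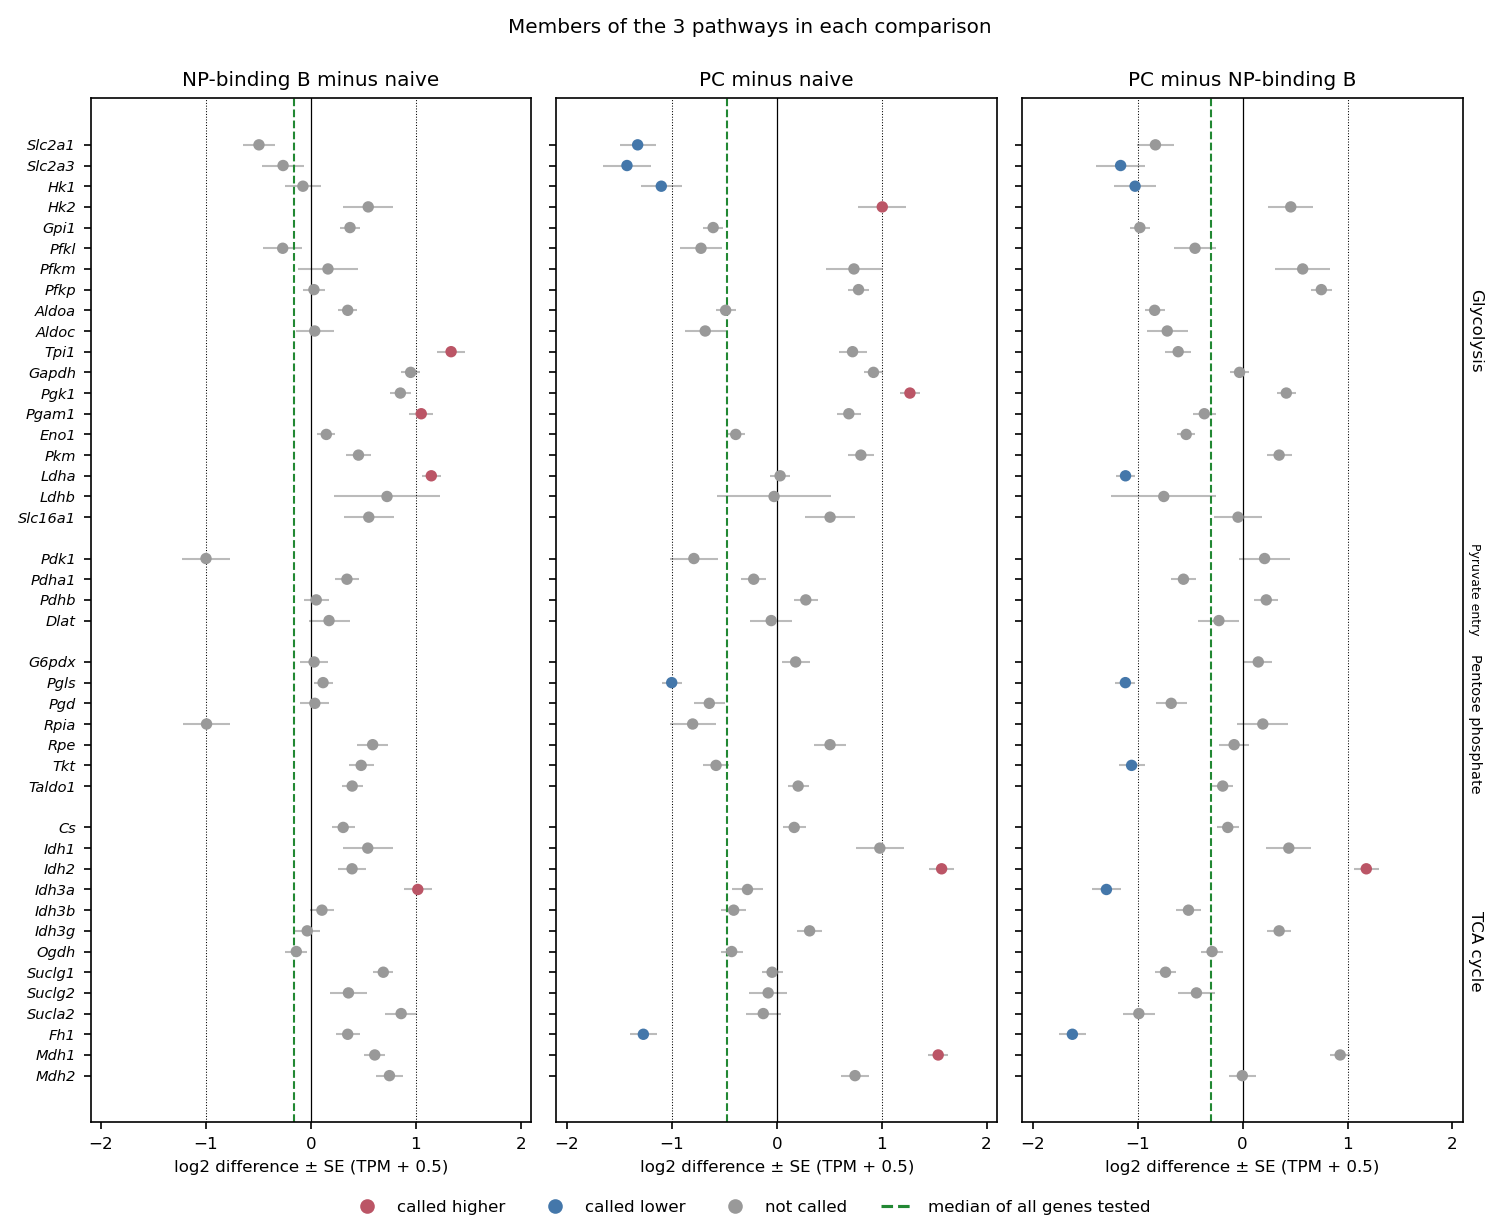
Log2 difference (TPM with an offset of 0.5) of each of the 43 tested members, with its standard error, in the 3 comparisons. Red and blue points mark members called higher and lower, dotted lines a fold of 2, and the dashed green line the median of all genes tested, which lies at -0.16, -0.47 and -0.30 from left to right.

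Ldha (chr7:46841475-46855627, plus strand of GRCm38), which encodes the subunit of lactate dehydrogenase that favours lactate formation, was the most abundant of these 4. Its TPM was 413, 433 and 445 in naive cells and 1062, 865 and 961 in NP-binding B cells. All 3 activated libraries lay far above the naive ones, with no overlap. The log2 difference was 1.15 ± 0.089 (SE, n = 3 per group, limma-voom adjusted p = 6.7e-06), a 2.22-fold rise. Tpi1 (chr6:124810586-124814296, minus strand), which interconverts the triose phosphates released by aldolase, measured 90.1, 85.1 and 80.7 TPM in naive cells and 238, 197 and 218 in NP-binding B cells. With 1.34 ± 0.13 (limma-voom adjusted p = 2.77e-05) it had the largest positive log2 difference of the 43 members, and it was the only 1 of the 4 called under all 20 alternative settings. Pgam1 (chr19:41911923-41918660, plus strand), the phosphoglycerate mutase of most tissues, stood at 78.4, 85.3 and 90.2 TPM in naive cells and 178, 161 and 193 TPM in NP-binding B cells. Its libraries were equally well separated, and its log2 difference was 1.05 ± 0.11 (limma-voom adjusted p = 4.97e-05).

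The promoters of these 3 genes, and of Pgk1, a glycolytic kinase that rose in PCs, are shown because Myc and hypoxia-inducible factor, both regulators of glycolytic genes, bind short and recognizable motifs. Each line is the RefSeq window from 250 bases before to 50 bases after the annotated start, on GRCm38.p6 and read 5′ to 3′ on the gene's strand. The windows are chr7:46845554-46845853 (plus), chr19:41911621-41911920 (plus), chr6:124814109-124814408 (minus) and chrX:106186850-106187149 (plus). Capitals mark the E-box CACGTG bound by Myc and its relatives and the hypoxia response cores ACGTG and GCGTG, searched on both strands, and an E-box holds ACGTG on each strand.
Ldha: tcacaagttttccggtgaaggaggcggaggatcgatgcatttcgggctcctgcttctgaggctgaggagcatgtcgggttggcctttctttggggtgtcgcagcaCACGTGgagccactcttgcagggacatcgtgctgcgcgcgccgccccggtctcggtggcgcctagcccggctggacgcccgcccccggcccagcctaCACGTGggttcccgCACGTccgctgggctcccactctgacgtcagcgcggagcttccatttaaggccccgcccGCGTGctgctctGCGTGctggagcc
Pgam1: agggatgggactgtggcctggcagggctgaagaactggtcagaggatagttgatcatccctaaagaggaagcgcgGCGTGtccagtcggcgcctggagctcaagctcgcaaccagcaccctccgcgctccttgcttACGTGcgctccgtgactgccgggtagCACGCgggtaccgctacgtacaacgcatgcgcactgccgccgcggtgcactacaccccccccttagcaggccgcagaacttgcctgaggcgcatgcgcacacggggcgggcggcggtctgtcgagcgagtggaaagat
Tpi1: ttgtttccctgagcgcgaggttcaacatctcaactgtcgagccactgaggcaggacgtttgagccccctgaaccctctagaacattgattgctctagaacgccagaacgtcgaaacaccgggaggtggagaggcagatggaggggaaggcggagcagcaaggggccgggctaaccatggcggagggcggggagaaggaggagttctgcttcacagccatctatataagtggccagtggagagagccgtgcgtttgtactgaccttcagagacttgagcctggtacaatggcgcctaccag
Pgk1: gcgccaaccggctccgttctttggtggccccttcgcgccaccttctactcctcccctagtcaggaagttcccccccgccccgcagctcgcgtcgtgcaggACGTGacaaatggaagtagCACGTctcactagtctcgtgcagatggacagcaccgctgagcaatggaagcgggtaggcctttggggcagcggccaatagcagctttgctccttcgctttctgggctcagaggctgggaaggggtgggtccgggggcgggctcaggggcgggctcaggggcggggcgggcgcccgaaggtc

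The Ldha window held 2 E-boxes, and a second Ldha window in the same table held 0. The Pgam1 and Pgk1 windows held hypoxia cores without an E-box, and in the Tpi1 window none of these motifs was found. Windows were listed for 42 members, of which 4 had an E-box (Ldha, Pfkm, Slc16a1 and Ogdh). Counted by window, an E-box was present in 9.84% of the 61 member windows and in 7.15% of all 32851 windows of this length. ACGTG or GCGTG was present in 77.0% of member windows against 43.8% of all windows. Member windows were also richer in G and C, with a median of 60.7% against 52.7%, and the part of base composition in these shares was not tested. A match is a string of letters and not a binding site.

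For description, glycolysis was divided into an early and a late portion after the values had been seen, and the late one holds the 3 genes already described. All 8 genes from triose phosphate to lactate had log2 differences above 0, with a median of 0.90 (0.73 without Tpi1, Pgam1 and Ldha), whereas the 10 genes from glucose uptake to aldolase had a median of 0.033. Gapdh, which makes the first NADH of the pathway, was 490.1 ± 31.2 TPM in naive and 955 ± 95.2 TPM in NP-binding B cells (SD, n = 3), a log2 difference of 0.95 ± 0.093 just below the fold required. Pgk1, the first step that forms ATP, differed by 0.85 ± 0.098, Pkm, which makes pyruvate, by 0.45 ± 0.12 and Eno1 by 0.15 ± 0.086. Among the early genes the log2 differences ran from -0.49 for Slc2a1, the glucose transporter GLUT1, to 0.55 for Hk2. Slc2a1 measured 29.0, 25.8 and 31.5 TPM in naive and 17.3, 20.8 and 23.3 TPM in NP-binding B cells, lower in every library (limma-voom adjusted p = 0.0256) but within a fold of 2. The second transporter, Slc2a3, overlapped between the groups at 22.8, 21.4 and 30.1 TPM in naive cells and 23.9, 15.9 and 22.4 TPM in NP-binding B cells.

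In the TCA cycle, Idh3a (chr9:54586334-54604661, plus strand), the catalytic subunit of the NAD-dependent isocitrate dehydrogenase, rose from 34.0, 30.8 and 34.3 TPM in naive cells to 76.0, 58.6 and 70.0 TPM in NP-binding B cells. Its log2 difference was 1.02 ± 0.13 (limma-voom adjusted p = 0.000193), close to the fold required, and it was called under 16 of 20 alternatives. The other 2 subunits of the same enzyme were not called, with 0.11 ± 0.11 for Idh3b and -0.034 ± 0.12 for Idh3g. Log2 differences of the remaining 10 cycle genes lay between -0.14 (Ogdh, the ketoglutarate dehydrogenase) and 0.86 (Sucla2, a succinyl-CoA ligase subunit). In the pentose phosphate pathway 0 of 7 members were called. Log2 differences there ran from -0.99 for Rpia, the ribose phosphate isomerase, to 0.59 for Rpe. Of the 4 pyruvate entry genes 0 were called. Pdk1, a kinase that inhibits pyruvate dehydrogenase, measured 36.8, 36.2 and 37.8 TPM in naive and 15, 22.3 and 18.3 TPM in NP-binding B cells. No activated library reached a naive one, and the log2 difference of -1.0 ± 0.23 (limma-voom adjusted p = 0.006) lay at the edge of the fold required.

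**Figure D2:**
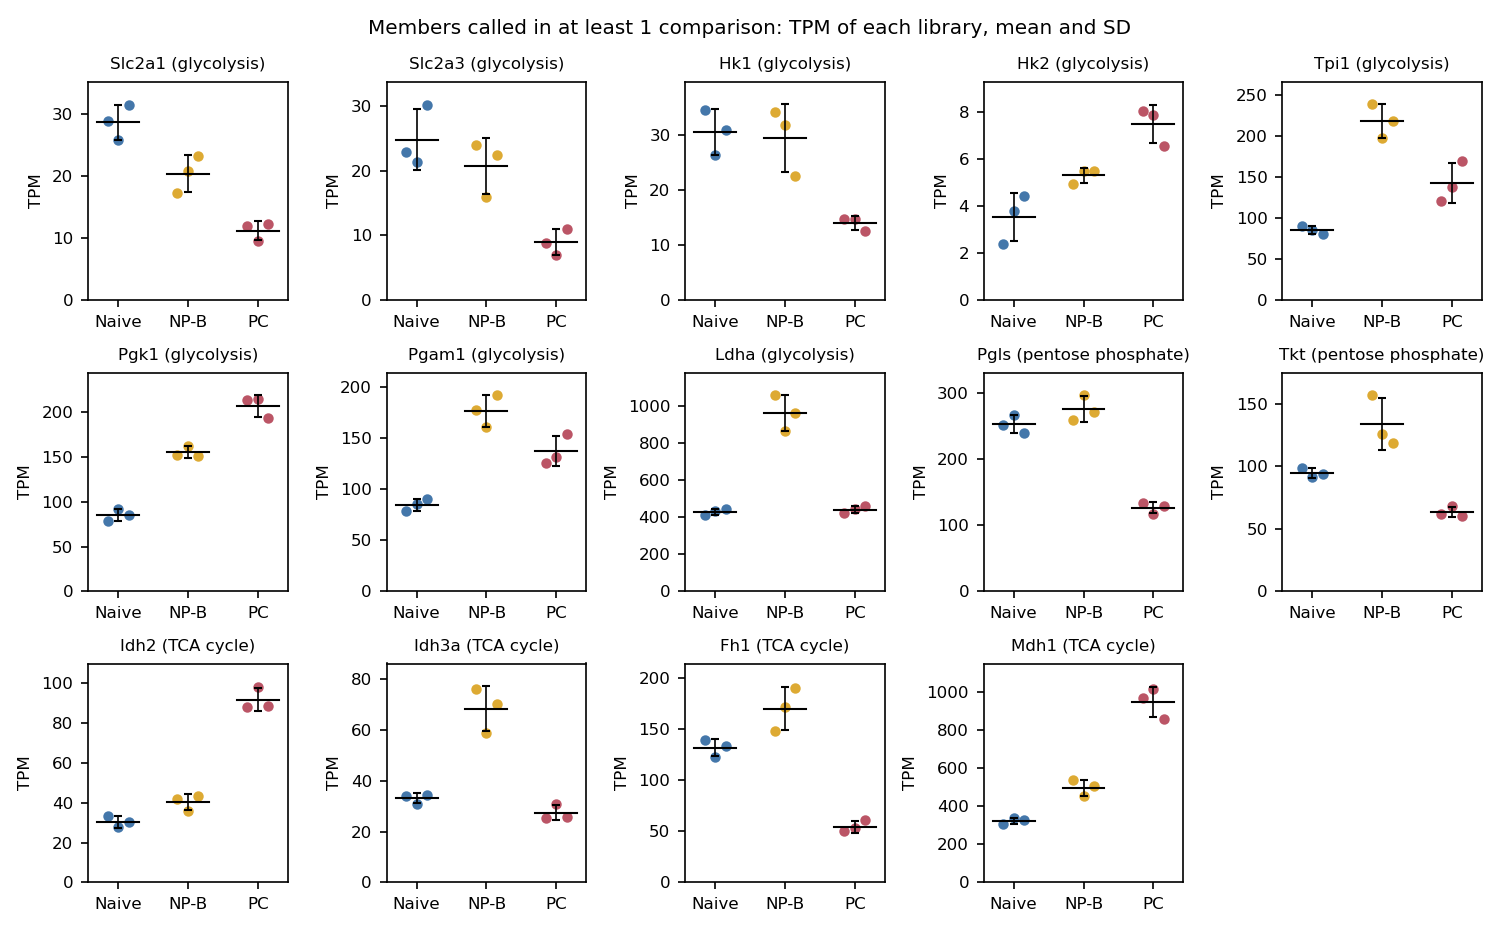
TPM of the 14 members called in at least 1 comparison, on linear axes from 0. Points are libraries, horizontal lines group means and bars SD (n = 3). Ldha, Tpi1, Pgam1 and Idh3a peak in NP-binding B cells (NP-B), while Pgk1, Hk2, Idh2 and Mdh1 are highest in PCs.

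In PCs compared with naive B cells, 4 members rose and 5 fell. Over all genes the rule called 11.4% higher and 26.3% lower, so both shares of the 43 members were below the background. The members that rose were Idh2 and Mdh1 of the TCA list, an NADPH-forming and a cytosolic enzyme, and Pgk1 and Hk2 of glycolysis. Those that fell were Slc2a1, Slc2a3 and Hk1 at the start of glycolysis, Pgls of the pentose phosphate pathway and Fh1 of the TCA cycle. The median log2 difference of the members was -0.044 against -0.47 over all genes, with 20 of 43 above 0 against 31.6% of all genes. PC libraries lay wholly above naive ones in 16 members and wholly below in 18, against 21.0% and 48.7% of all genes. An adjusted p below 0.05 at any fold was reached by 30 members, where the background was 60.3%. Without PC replicate 3 the same 9 members were called.

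Directions in PCs depended on the scale. Median-of-ratios scaling moved the median of all genes by 0.49 and turned the split of calls from 1473 higher and 3397 lower to 2349 and 1814. On that scale 14 members were called higher and 0 lower in PCs against naive cells, and the 14 included the 4 that rose. The 5 members that fell kept log2 differences below 0 but lost their calls, with -0.94 for Slc2a3, -0.83 for Slc2a1, -0.78 for Fh1, -0.61 for Hk1 and -0.51 for Pgls. Over all genes this scale called 18.2% higher and 14.1% lower. Quantile normalization gave 7 higher and 2 lower, beside 16.0% and 15.9% of all genes. With the Ig transcripts kept in the total, the median of all genes moved by -0.93, 26 members were called lower and 0 higher beside 64.5% and 4.47% of all genes, and Hk2 turned to -0.023. Idh2, Mdh1 and Pgk1 lay above the median of all genes under each of these 3 scalings.

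**Figure D3:**
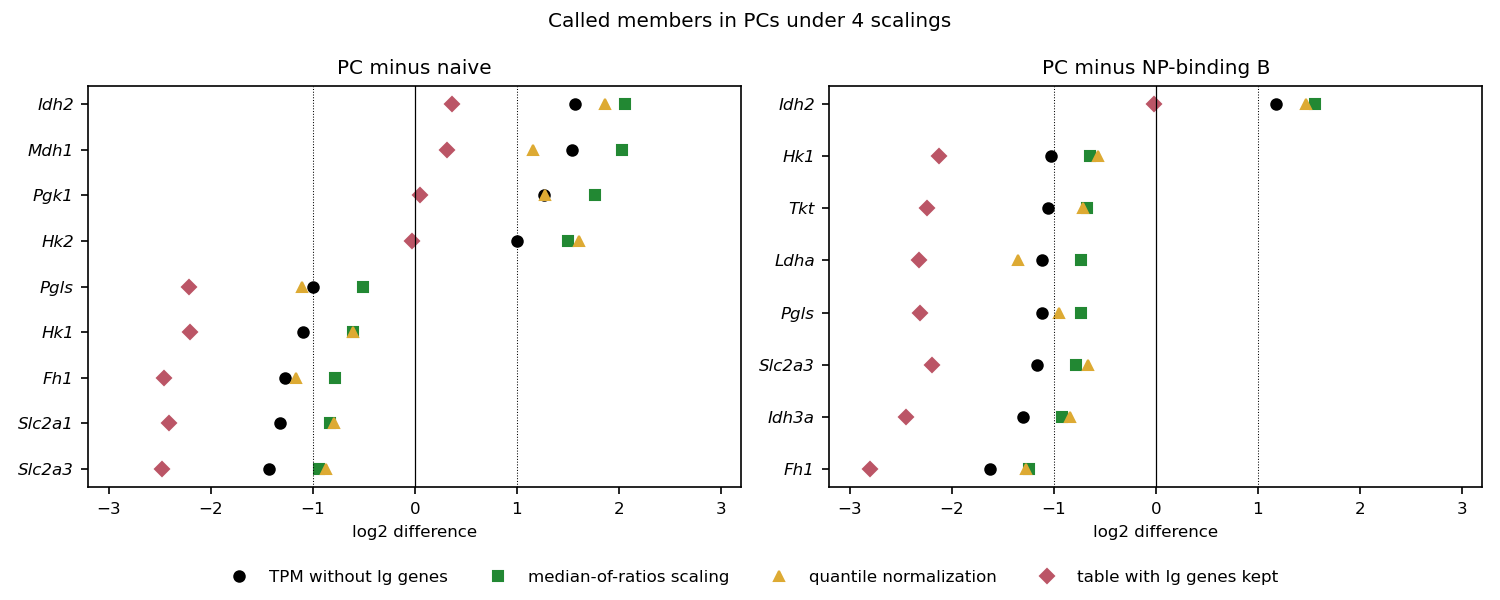
Log2 differences of the members called in PCs, against naive B cells on the left and against NP-binding B cells on the right, under 4 scalings of the libraries. Dotted lines mark a fold of 2. The points shift together, to the left with the Ig genes kept and to the right under median-of-ratios scaling.

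Idh2 and Mdh1 differed most on the TPM scale. Under quantile normalization Hk2 (1.608), Idh1 (1.507), Pfkm (1.301) and Pgk1 (1.275) lay above Mdh1 (1.157), and Fh1 (-1.163) also exceeded it in size. With the Ig genes kept Slc2a3 (-2.475) and Fh1 (-2.464) differed most. Idh2 (chr7:80094846-80115392, minus strand) encodes the mitochondrial isocitrate dehydrogenase that makes NADPH, and its TPM was 33.6, 27.7 and 30.1 in naive cells, 42.1, 35.8 and 43.4 in NP-binding B cells and 88.1, 98.3 and 88.8 in PCs. PC libraries were far above both other groups, which were themselves separated by a narrow gap. The log2 difference from naive cells was 1.57 ± 0.12 (limma-voom adjusted p = 1.14e-06), or 2.97-fold. Mdh1 (chr11:21556787-21572367, minus strand), the cytosolic malate dehydrogenase of the malate-aspartate shuttle, stepped up in the same order, from 307, 337 and 329 TPM through 538, 454 and 504 TPM to 972, 1016 and 860.3 TPM. It was the most abundant member of the TCA list in PCs, and its log2 difference from naive cells was 1.54 ± 0.096 (limma-voom adjusted p = 1.95e-07). Without PC replicate 3 the 2 differences were 1.60 and 1.61. The cytosolic partner of Idh2, Idh1, was not called at 0.98 ± 0.23. Its PC values were 15.8, 18.5 and 25.3 TPM, the highest of them in replicate 3, the library with liver transcripts.

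Fh1 (chr1:175600374-175625635, minus strand), the fumarate hydratase of the cycle, went the other way. It measured 139, 123 and 134 TPM in naive cells, 148, 171 and 191 in NP-binding B cells and 49.9, 52.9 and 61.3 in PCs. Every PC library lay far below the lowest value elsewhere. The log2 difference was -1.27 ± 0.13 from naive cells (limma-voom adjusted p = 8.79e-06) and -1.62 ± 0.13 from NP-binding B cells (limma-voom adjusted p = 1.47e-06), and the second call stood under all 20 alternatives. The other 10 cycle genes lay between -0.43 (Ogdh) and 0.98 (Idh1) in PCs against naive cells, with Mdh2, the mitochondrial malate dehydrogenase, at 0.75 ± 0.13 and Cs, citrate synthase, at 0.17 ± 0.11.

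At the start of glycolysis, both glucose transporters fell in PCs, calls that median-of-ratios scaling and quantile normalization removed, as they did for Hk1. Slc2a1 (chr4:119108711-119137983, plus strand) was 11.9, 9.53 and 12.3 TPM in PCs, below every naive and every NP-binding B cell library, with a log2 difference from naive cells of -1.33 ± 0.17 (limma-voom adjusted p = 5.67e-05). Slc2a3 (chr6:122727809-122801640, minus strand), the high-affinity transporter GLUT3, was 8.81, 7.04 and 11.1 TPM, likewise below all 6 other libraries, with -1.43 ± 0.23 (limma-voom adjusted p = 0.000305). Of the hexokinases, which trap glucose in the cell, Hk1 (chr10:62268855-62379908, minus strand) fell from 34.7, 26.4 and 30.9 TPM to 14.7, 14.8 and 12.5 TPM (log2 difference -1.10 ± 0.20, limma-voom adjusted p = 0.000592). Hk2 (chr6:82725025-82774454, minus strand), the inducible form, rose from 2.41, 3.78 and 4.42 TPM to 8.03, 7.86 and 6.53 TPM. Its log2 difference of 1.01 ± 0.23 (limma-voom adjusted p = 0.00297) barely passed the fold, rested on 134 to 327 estimated reads per library in these groups and was called under 13 of 19 alternatives that tested it. Further along, Pgk1 (chrX:106187100-106203699, plus strand) rose from 78.8, 91.7 and 85.1 TPM to 214, 214 and 193 TPM, with PC libraries above all others, and a log2 difference of 1.27 ± 0.096 (limma-voom adjusted p = 9.64e-07). Gapdh at 0.92, Pkm at 0.80, Pfkp, the platelet-type phosphofructokinase, at 0.78, Tpi1 at 0.72 and Pgam1 at 0.69 were within a fold of 2 of naive cells. Gpi1, Pfkl, Aldoa, Aldoc and Eno1 had log2 differences between -0.72 and -0.39. Ldha in PCs was 422, 445 and 459 TPM, and its log2 difference from naive cells was 0.032 ± 0.092 with a 95% interval of -0.17 to 0.24.

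In the pentose phosphate pathway 1 of 7 members was called in PCs against naive cells. Pgls (chr8:71592176-71601092, plus strand), the lactonase of the oxidative arm, fell from 251, 267 and 240.4 TPM to 134, 118 and 129 TPM, a log2 difference of -1.0 ± 0.095 (limma-voom adjusted p = 5.48e-06) at the edge of the fold. Its transcripts shared 19.5% of their 31-base words with the overlapping gene Fam129c, whose TPM was 97.7, 97.2 and 109 in naive cells, 125, 166 and 146 in NP-binding B cells and 8.68, 11.9 and 15.5 in PCs, so reads could be divided between them, and the part of this in the fall was not tested. G6pdx, the enzyme that commits glucose phosphate to the pathway, lay at 0.18 ± 0.13 and overlapped between the groups. Pgd, the next NADPH-forming step, was at -0.64 ± 0.15. In the other arm the values were -0.80 for Rpia, -0.58 for Tkt, 0.51 for Rpe and 0.20 for Taldo1. None of the 4 pyruvate entry genes was called, and Pdk1, Pdha1, Pdhb and Dlat ran from -0.79 to 0.28.

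Set directly against NP-binding B cells, PCs had 1 member higher and 7 lower, where the background of 9.93% and 22.3% of all genes was above both shares. The comparison shares its libraries with the other 2. Median log2 difference was -0.37 over the members and -0.30 over all genes, and 13 of 43 were above 0 against 37.4% of all genes. PC libraries lay wholly above in 7 members and wholly below in 21, against 17.3% and 40.9% of all genes. The adjusted p alone was below 0.05 in 26, against 53.8%. Idh2 rose by 1.18 ± 0.12 on the log2 scale (limma-voom adjusted p = 9.83e-06). Ldha fell by 1.12 ± 0.089 on the log2 scale (limma-voom adjusted p = 1.74e-06), and its PC and naive libraries overlapped. Idh3a likewise fell, with -1.30 ± 0.14 (limma-voom adjusted p = 1.56e-05) and PC values of 25.4, 30.8 and 25.8 TPM. Tkt (chr14:30548359-30574720, plus strand), the transketolase that links the pentose phosphate pathway back to glycolysis, measured 157, 126 and 119 TPM in NP-binding B cells and 62.1, 68.1 and 60.4 TPM in PCs, a log2 difference of -1.06 ± 0.12 (limma-voom adjusted p = 3.25e-05). Fh1, Slc2a3 (-1.16), Pgls (-1.12) and Hk1 (-1.02) made up the rest. Under median-of-ratios scaling, which moved the median of all genes by 0.38 and the split of calls from 1280 higher and 2870 lower to 2023 and 1788, 3 members were called higher (Idh2, Mdh1 and Pfkp) and only Fh1 lower, beside 15.7% and 13.9% of all genes, and quantile normalization left Idh2 higher and Fh1 and Ldha lower, beside 13.9% and 14.3%. Without PC replicate 3, 2 were higher (Idh2 and Mdh1) and 7 lower, with Gpi1 in place of Hk1. With the Ig genes kept, which moved the median of all genes by -0.97, 31 members were lower and 0 higher beside 59.7% and 3.41% of all genes, and Idh2 lay at -0.014.

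The 3 pathways differed in level and in how they moved. Summed over its members, glycolysis was 2755 ± 39.7 TPM in naive B cells, 4356 ± 157 in NP-binding B cells and 3360.5 ± 55.4 in PCs (SD, n = 3), highest in NP-binding B cells and intermediate in PCs on this scale. The pentose phosphate pathway followed with 723 ± 19.1, 877 ± 37.6 and 598 ± 15.3 TPM, also highest in NP-binding B cells but lowest in PCs on this scale. In these sums Pgls, whose reads could be divided with Fam129c, held 253, 276 and 127 TPM. Sums without Pgls were not computed, so a fall of the pathway beyond this gene is not shown. The TCA cycle had 1593 ± 28.7, 2189.6 ± 152 and 2376 ± 145 TPM, and the ranges of the latter 2 groups overlapped on this scale. In these sums the cytosolic Mdh1 held 325, 499 and 950 TPM, and sums without it were not computed. The orders of the groups moved with the scaling. By median of ratios the group means of glycolysis were 2405, 4079 and 4113 and those of the pentose phosphate pathway 631, 821 and 732, so that PCs reached NP-binding B cells in the first and passed naive cells in the second. The TCA sums of NP-binding B cells and PCs then no longer overlapped, at 1969 to 2096 and 2751 to 3155, and by quantile normalization they were 2142 to 2255 and 2274 to 2502. Quantile normalization put glycolysis at 3287, 4644 and 3289.6, and with the Ig genes kept PCs were lowest in all 4 pathways. Pyruvate entry stayed between 210.0 and 265 TPM in all 9 libraries of the table without Ig genes. All members together took 0.561% ± 0.00385 of the table's TPM in naive cells, 0.806% ± 0.0371 in NP-binding B cells and 0.692% ± 0.0262 in PCs.

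Ratios within a library do not change when all its values are multiplied by 1 factor, as the median of ratios and the Ig genes do, but quantile normalization changes them. Summed pentose phosphate TPM per glycolytic TPM was 0.260 to 0.266 in naive, 0.196 to 0.205 in NP-binding B and 0.176 to 0.180 in PC libraries. The 3 ranges did not touch. The order was the same without the most abundant gene of each pathway (Taldo1 and Gapdh), with group means of 0.212, 0.164 and 0.130. Pgls, whose reads could be divided with Fam129c, stayed in these ratios, and the order without it was not computed. TCA per glycolytic TPM was 0.558 to 0.592 in naive, 0.483 to 0.517 in NP-binding B and 0.672 to 0.735 in PC libraries. Here PCs were highest and NP-binding B cells lowest. Without the most abundant gene of each pathway (Mdh1 and Gapdh) the group means came closer, at 0.560, 0.497 and 0.587. Gapdh, which left the glycolytic sum at the same time, was also higher in PCs than in naive cells. The ratio without Mdh1 alone was not computed, so whether PCs would stay highest is not shown. After quantile normalization the pentose phosphate ratio was 0.244 to 0.253, 0.171 to 0.205 and 0.199 to 0.204, so that PCs and NP-binding B cells overlapped, whereas the TCA ratio kept its order at 0.530 to 0.582, 0.455 to 0.480 and 0.694 to 0.758. By member rather than by sum, the median log2 difference in NP-binding B cells was 0.37 for glycolysis, 0.39 for the TCA cycle and 0.12 for the pentose phosphate pathway. In PCs against naive cells the medians were 0.032, -0.044 and -0.58, beside -0.47 over all genes. Over genes with a mean TPM of at least 10 they were -0.391, -0.044 and -0.199, beside -0.41, which made glycolysis the lowest of the 3. Without PC replicate 2 the glycolysis median was 0.52, beside -0.43 over all genes. With 3 libraries a group the smallest exact two-sided permutation p is 0.1, and these sums and ratios are given as descriptions without a test.

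**Figure D4:**
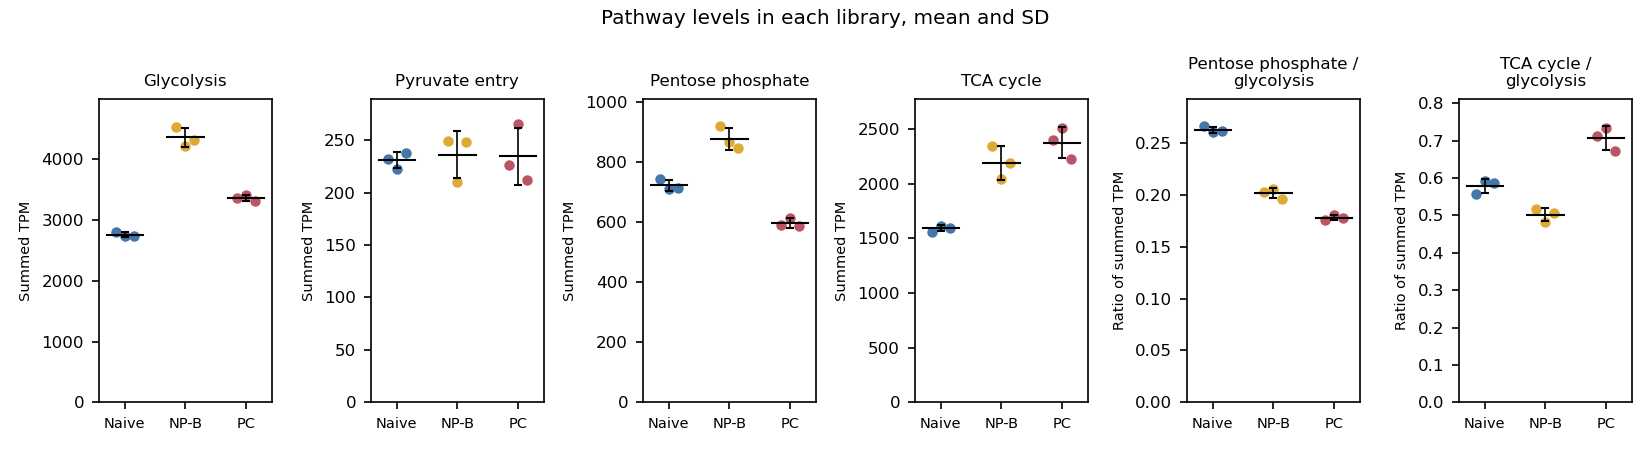
Summed TPM of the members of each pathway (left 4 panels) and the ratio of summed TPM to that of glycolysis (right 2 panels) in each library, with group mean and SD (n = 3) and axes from 0. Glycolysis and the pentose phosphate pathway peak in NP-binding B cells (NP-B), and the pentose phosphate ratio is lowest in PCs, on the deposited TPM scale. All members are summed, Pgls and Mdh1 included.

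The same 2 portions of glycolysis, divided after the values had been seen, also differed in PCs. Genes from triose phosphate to lactate summed to 2012 ± 33.4 TPM in naive, 3476 ± 95.9 in NP-binding B cells and 2779.9 ± 60.7 in PCs. Genes from uptake to aldolase summed to 737 ± 24.9, 873 ± 60.7 and 574 ± 28.2 TPM. On this scale every PC library was above the naive ones in the late portion and below them in the early one, whereas by median of ratios PCs were above naive cells in both, with early sums of 687 to 714 against 628 to 659, and with the Ig genes kept below them in both. The median log2 difference from naive cells was 0.70 over the 8 late genes and -0.64 over the 10 early ones. These medians were 1.20 and -0.15 under median-of-ratios scaling, 0.52 and -0.37 under quantile normalization, and -0.45 and -1.77 with the Ig genes kept, so the late portion stood above the early one on each scale but was itself below naive cells on the last. Against NP-binding B cells the late and early medians were -0.45 and -0.78 in PCs, but -0.39 and -0.29 under quantile normalization, which put the late portion lower.

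At some steps the isoenzymes that catalyse the same reaction shifted against each other. Hk2 made up 6.50 to 12.5% of Hk1 plus Hk2 TPM in naive libraries, 12.6 to 19.6% in NP-binding B cells and 34.3 to 35.3% in PCs, although Hk1 remained the more abundant form in all 9. Pfkp, 1 of 3 forms of the phosphofructokinase that commits sugar to glycolysis, took 62.7 to 65.6%, 61.5 to 73.6% and 81.2 to 84.0% of the step. PC libraries lay above both B cell groups at each step, and those 2 groups overlapped for Pfkp. Per unit of Pfkl, the liver-type form, Pfkp was 1.87 ± 0.130, 2.37 ± 0.667 and 5.37 ± 0.567. Mdh1 per Mdh2, cytosolic against mitochondrial malate dehydrogenase, was 1.22 ± 0.0974 in naive cells, 1.11 ± 0.124 in NP-binding B cells and 2.1 ± 0.0568 in PCs. Other sets overlapped between naive cells and PCs. Slc2a1 made up 51.1 to 55.9% of Slc2a1 plus Slc2a3 in naive cells and 52.6 to 57.6% in PCs. Idh2 took 72.7 to 78.2% and 77.8 to 84.8% of Idh1 plus Idh2, and Sucla2 68.7 to 70.7% and 67.7 to 71.0% of Suclg2 plus Sucla2.

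**Figure D5:**
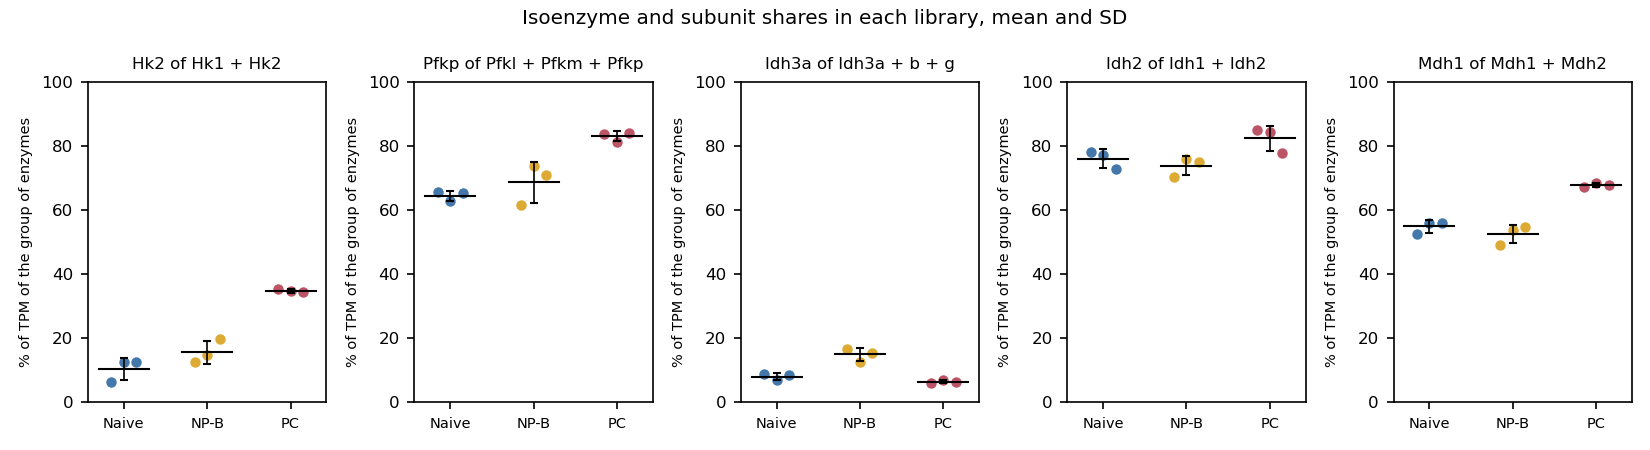
Share of 1 isoenzyme or subunit in the summed TPM of the named set, as a percentage from 0 to 100, in each library with group mean and SD (n = 3). The shares of Hk2, Pfkp and Mdh1 are highest in PCs, and that of Idh3a is highest in NP-binding B cells (NP-B).

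Idh3a behaved differently from the subunits with which it forms an enzyme. It accounted for 6.89 to 8.83% of the 3 subunits' TPM in naive, 12.7 to 16.7% in NP-binding B and 6.17 to 6.92% in PC libraries, and it was the least abundant of the 3 throughout. Aldoa made up 96.5 to 97.9% of Aldoa plus Aldoc and Ldha 99.5 to 99.95% of lactate dehydrogenase, so there was almost no second form to shift to. Ldha per Pdha1, the subunits that take pyruvate to lactate and to acetyl-CoA, was 8.56 to 9.08 in naive, 13.8 to 17.7 in NP-binding B and 9.74 to 11.3 in PC libraries, highest in every NP-binding B cell library. After quantile normalization this ratio was 10.1 to 11.2, 15.3 to 23.6 and 7.61 to 8.21, which put PCs below naive cells instead of above them. The Hk2, Pfkp, Mdh1 and Idh3a comparisons above kept the group with the highest value. For the Idh3a share, naive cells and PCs changed order, at 5.83 to 7.61% and 7.61 to 8.26% after quantile normalization.

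The remaining 30 members, Slc16a3 included, were called in no comparison. Some of them lay at low levels, and Ldhb had the largest standard error of the tested members in each comparison. Ldhb lay between 0.204 and 4.03 TPM, with as few as 3.7 estimated reads in a library, Pfkm between 1.01 and 2.60 TPM and Slc16a1, the lactate transporter MCT1, between 2.97 and 7.91 TPM. By group mean on the TPM scale, 26 of the 44 members were highest in NP-binding B cells, 11 in PCs and 7 in naive cells. In naive cells 21 were lowest, in PCs 20 and in NP-binding B cells 3. By median of ratios 18 were highest in NP-binding B cells and 21 in PCs, with 10 lowest in PCs, and with the Ig genes kept 32 were highest in NP-binding B cells and all 44 lowest in PCs. Quantile normalization, which covered 43 members, put 17 highest in NP-binding B cells, 15 in PCs and 11 in naive cells, with 17 lowest in PCs. These counts are descriptions, given without a share over all genes.

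Several glycolytic genes have near-copies elsewhere in the genome, to which the pseudoalignment could assign a share of their reads. In the GENCODE vM21 transcripts, 16 of the 44 members shared over 5% of their 31-base words with a single other gene, and 13 shared none. Pgk1 shared 54.7% with Pgk1-rs7, which reached 6.70 TPM at most. Pgam1 shared 37.1% with Pgam1-ps2, at most 24.9 TPM. Gapdh shared 26.5% with Gm7336, whose TPM was 230.3, 254 and 255 in naive, 449.9, 512 and 421 in NP-binding B cells and 450.1, 497 and 522 in PCs, so the level of Gapdh itself is uncertain. Idh2, Mdh1, Idh3a, Hk1 and Slc2a1 were free of such words.

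Other genes of the pathways and their regulators were counted in lists made by function. The shares of all genes called higher and lower, against which these counts are read, were 8.13% and 10.4% in NP-binding B cells, 11.4% and 26.3% in PCs against naive cells and 9.93% and 22.3% in PCs against NP-binding B cells, and those under the other scalings were given for the members above. Of 18 further glycolytic genes tested, 1 rose and 4 fell in NP-binding B cells, and 3 rose and 6 fell in PCs against naive cells. Of 10 further genes of pyruvate entry, 1 rose and 2 fell in NP-binding B cells and 3 rose and 3 fell in PCs. Of 18 further TCA genes the counts were 1 and 0, then 4 and 2, and of 7 further pentose phosphate genes 1 and 0, then 1 and 0. Among 15 regulators 1 rose and 2 fell in NP-binding B cells, and 0 rose and 10 fell in PCs against naive cells. Between PCs and NP-binding B cells the counts higher and lower were 4 and 3 for glycolysis, 3 and 1 for pyruvate entry, 2 and 2 for the TCA cycle, 1 and 1 for the pentose phosphate pathway and 1 and 5 for the regulators. In the same order these counts were 4 and 2, 3 and 0, 7 and 2, 3 and 0, and 2 and 4 by median of ratios, 4 and 2, 3 and 0, 7 and 2, 1 and 0, and 1 and 5 by quantile normalization, and 1 and 7, 0 and 5, 0 and 10, 0 and 3, and 0 and 12 with the Ig genes kept. In PCs against naive cells the regulators' median log2 difference was -1.29, beside -0.47 over all genes and a background of 26.3% called lower. On the median-of-ratios scale 1 regulator rose and 6 fell, with a median of -0.80, under quantile normalization 0 rose and 7 fell, and with the Ig genes kept 0 rose and 14 fell. Myc, Hif1a, Mlxip, Esrra, Txnip and Ppargc1a fell on each of these scales. The further glycolytic genes in PCs against naive cells had 3 up and 4 down by median of ratios, 4 and 3 by quantiles and 3 and 12 with the Ig genes kept, those of pyruvate entry 3 and 1, 3 and 1, and 1 and 6, and those of the pentose phosphate pathway 3 and 0, 2 and 0, and 0 and 1. Further TCA genes changed sides with the scale, with 6 up and 0 down by median of ratios, 5 and 1 by quantiles and 0 and 9 with the Ig genes kept.

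The largest called differences among these genes in NP-binding B cells were those of Txnip, which restrains glucose uptake, Pdp1, a phosphatase that activates pyruvate dehydrogenase, Ppargc1a, a coactivator of mitochondrial genes, Mlxip, a glucose-sensing transcription factor, Slc2a6, a hexose transporter, and Pdk2, a pyruvate dehydrogenase kinase. Txnip fell from 204, 246 and 254 TPM in naive cells to 45.1, 78.6 and 38.8 TPM (log2 difference -2.17 ± 0.21, limma-voom adjusted p = 2.93e-05). Pdp1 fell by 1.93, Ppargc1a by 1.69, Slc2a6 by 1.5 and Pdk2 by 1.45 on the log2 scale, while Mlxip rose by 1.5. Of the 6, only Mlxip was higher in every NP-binding B cell library, at 78.0, 50.3 and 72.3 TPM against 26.0, 17.4 and 26.0 TPM in naive cells.

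In PCs against naive cells the 6 largest were Pfkfb4, Pgam2, Bpgm, Tktl1, Mpc2 and Esrra. Pfkfb4, which sets the level of an activator of phosphofructokinase, was 7.65, 3.83 and 5.06 TPM in naive cells and 0, 0.164 and 0 TPM in PCs. Mpc2, a subunit of the carrier that brings pyruvate into mitochondria, rose from 82.1, 85.9 and 87.3 TPM to 495, 506 and 548 TPM (log2 difference 2.59 ± 0.096, limma-voom adjusted p = 3.95e-09). Pgam2, the muscle form of phosphoglycerate mutase, rose by 3.06 and Bpgm, bisphosphoglycerate mutase, by 2.94, to 95.2, 117 and 76.0 TPM. Bpgm is also a gene of red cells, whose markers summed to the values given above. Tktl1, a transketolase relative, rose by 2.70 at a low level, and Esrra, a nuclear receptor for mitochondrial genes, fell by 2.55 on the log2 scale. Against NP-binding B cells the 6 largest were Myc at -3.11, Mlxip at -3.11, Pfkfb4 at a fitted -3.08, Pgam2 at 3.04, Glud1, glutamate dehydrogenase, at -2.38 and Pfkfb3 at -2.24. Myc measured 72.3, 72.3 and 68.4 TPM in naive cells, 122, 109 and 99 in NP-binding B cells and 16.1, 9.66 and 11.8 in PCs. Hif1a, named after its values were seen because of the motifs above, measured 47.2, 42.8 and 55.9 TPM in naive cells, 50.6, 40.1 and 32.1 in NP-binding B cells and 8.94, 10.9 and 14.1 in PCs. Both were lower in PCs than in any B cell library.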

How the data were processed

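RNA was sequenced from 9 libraries, 3 each of naive B cells, NP-binding B cells and PCs, grouped by their labels. cDNA came from polyadenylated RNA by a template-switching kit. The TPM values were made by the authors, who pseudoaligned reads with kallisto to mouse transcripts (build mm10 in the submitters' processing notes, annotation not given in the sources used here) and gave 1 value per gene symbol. The deposited log2 values are voom values from the same estimates with an offset of 0.5 counts. Those without Ig genes served to recover depth outside Ig genes and as an alternative. All 4 tables were read, 2 of them with Ig genes. TPM of the tables without Ig genes, scaled to the full column total, were fitted with limma-voom (R 4.3.3, limma 3.58.1) to 3 group means over 9 libraries, for genes whose TPM was 1 or more in 3 or more libraries. Removing Ig genes before scaling raises every other value most in PCs, and libraries differ in depth outside Ig genes, which bears on low genes. Calls needed a Benjamini-Hochberg adjusted p below 0.05 and a fold above 2. The fit was tested on simulated data. Reads carry no molecular identifiers, so estimated reads are not independent molecules. Sequence sharing used GENCODE vM21 words of 31 bases and promoters the RefSeq windows of GRCm38.p6. The members and lists were chosen with earlier results of these data known. Called members are named with values and the others by range, and up to 6 called genes of the further lists per comparison by size of difference. Alternatives were other scalings, filters, offsets, input values, a replicate block and leaving out each library, and the estimated counts were added after seeing the data. Figures used Python 3.11.15 and matplotlib 3.10.9.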

Additional observations from a re-analysis of the deposited data

How the results depend on the processing

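Over 20 alternative settings, 2423 of 2565 member values kept their side of the call, 86 became called, 49 lost a call and 7 changed sign together with a gain or loss of a call. Counted without regard to calls, 108 values changed sign. In PCs against naive cells these were 11 of 43 members by median of ratios, 8 by quantile normalization and 16 with Ig genes kept. The 7 came from keeping the Ig genes, which put Hk2 at -0.023, Ldha at -1.19, G6pdx at -1.0, Taldo1 at -1.01 and Cs at -1.04 in PCs against naive cells, and G6pdx at -1.02 and Idh2 at -0.014 against NP-binding B cells. Counts are given as higher and lower. In NP-binding B cells against naive cells (4 and 0) there was 1 higher under quantile normalization, and lower were 1 with Ig genes kept (Pdk1), 1 with the deposited log2 values, 2 with an offset of 0.1 and 1 with estimated counts in place of TPM. In PCs against naive cells (4 and 5) the counts were 14 and 0 under median-of-ratios scaling, 7 and 2 under quantile normalization and 0 and 26 with Ig genes kept, with 7 higher from the deposited log2 values and from estimated counts. In PCs against NP-binding B cells (1 and 7) they were 3 and 1 under median-of-ratios scaling and 0 and 31 with Ig genes kept, and 2 lower under quantile normalization. The median of a pathway relative to that of all genes depends on the filter, which sets the genes compared. In NP-binding B cells against naive cells the glycolysis value of 0.53 became 0.31 under quantile normalization and 0.36 with a mean TPM of at least 10, the pentose phosphate value of 0.28 became 0.099 under quantile normalization, and the TCA value of 0.55 became 0.64 without a filter and 0.40 with a mean TPM of at least 10. In PCs against naive cells, glycolysis (0.51) became 0.24 without a filter, 0.019 with a mean TPM of at least 10 and 0.88 with Ig genes kept, pentose phosphate (-0.10) became -0.37, 0.21 and -0.37, and TCA (0.43) became 0.17 without a filter, 0.18 with Ig genes kept and 0.23 under quantile normalization. In PCs against NP-binding B cells, glycolysis (-0.24) became -0.34 under quantile normalization and -0.52 without a filter, pentose phosphate (0.11) became -0.18, -0.22 and, with Ig genes kept, -0.12, and TCA (0.0095) became -0.32 without a filter, 0.15 with a mean TPM of at least 10 and -0.21 with Ig genes kept. Without the most abundant gene of each pathway (Gapdh, Taldo1 and Mdh1) the pentose phosphate ratio to glycolysis was 0.212, 0.164 and 0.130 in naive, NP-binding B cells and PCs. The TCA ratio in PCs was then 0.587. Quantile normalization of the values summed, tried after seeing the data, gave pentose phosphate ratios of 0.250, 0.186 and 0.201 and TCA ratios of 0.557, 0.471 and 0.728. Leaving out 1 library at a time gave 2 to 5 members higher and 0 to 2 lower in NP-binding B cells against naive cells, where the lowest came without NP-binding B cell replicate 3, 3 to 5 and 4 to 5 in PCs against naive cells, and 1 to 2 and 5 to 8 in PCs against NP-binding B cells. Relative medians over these fits were 0.47 to 0.62 for TCA in NP-binding B cells, 0.46 to 0.96 for glycolysis and 0.39 to 0.52 for TCA in PCs against naive cells, with the 0.96 without PC replicate 2, and -0.26 to -0.078 for glycolysis in PCs against NP-binding B cells, with the last without NP-binding B cell replicate 1. They were 0.50 to 0.56 for glycolysis and 0.24 to 0.34 for pentose phosphate in NP-binding B cells, -0.20 to -0.0050 for pentose phosphate in PCs against naive cells, and 0.068 to 0.17 for pentose phosphate and -0.040 to 0.082 for TCA in PCs against NP-binding B cells. Where settings disagreed the cause was not tested. A replicate block gave 4 and 0, 3 and 5, and 1 and 7 members, with Hk2 lost in PCs against naive cells. Same-numbered libraries correlated at -0.075 to 0.068 in their deviations from group means, 2 of 9 best with their own number, so the numbers were not taken as pairs. Estimated counts were tried after seeing the data. Depth limits Ldhb, Slc16a3 and Pfkm most.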
